A study of Mus musculus with 5 samples.

Results

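The first passage of a liver-seeking mammary tumour sub-line was set against the 4 other samples of a mouse metastasis series, and the genes in which it stood apart were described. A gene was counted where the array of liver passage 1 lay outside the range of the 4 other arrays by at least 1 on log2(intensity + 16), that is, by 2-fold or more on that scale. The distance to the nearest of the 4 other arrays is called the margin below, positive above the range and negative below it. Of 12609 genes kept after a filter on dim genes, 66 (0.523%) met this rule, 32 above the range (0.254%) and 34 below it (0.27%).

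All 5 samples come from NT2.5 cells, a mouse mammary tumour line established from mice that carry the neu oncogene under a mouse mammary tumour virus promoter. Liver passage 1 is the earliest measured stage, passage 1, of a sub-line said to prefer liver as the site of metastasis, and liver passage 3 is a later stage of it. Bone passages 3 and 6 are stages of a sub-line that prefers bone, and the labels give bone, liver and lung as the sites preferred by the parental NT2.5 cells. Each sample was measured once, as total RNA on 1 one-colour Affymetrix mouse array. No treatment is named in the labels, and the number of animals behind a passage and the time in culture before RNA was taken are not given in the sources used here.

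With 1 array per sample there is no replicate check and no test. The 4 other arrays are 4 different samples, so their range describes how far these samples lie apart and not the error of a measurement. A sub-line taken from an organ can carry cells of the host along, and resident macrophages are among the cells that a liver holds in number. Both tumour cells and host are mouse, so these arrays cannot tell by species which cells a transcript came from. In bulk RNA, fewer cells of a type and less RNA per cell cannot be told apart.

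The array of liver passage 1 was not set apart by its median intensity. That median of 24.6 lay among those of the 4 other arrays, which ran between 21.9 and 26.4. The trimmed mean intensity was 150 on every array of the deposited data, so it cannot tell the arrays apart. The ratio of 5′ to 3′ signal, a measure of RNA integrity, was 0.888 for actin in liver passage 1, within the 0.842 to 0.927 of the others. For Gapdh the ratio was 1.33 in liver passage 1, above the 1.24 to 1.27 of the others. Whether this small difference bears on any gene was not tested. Epithelial tumour genes differed little in some cases and were low in liver passage 1 in others. The epithelial adhesion gene Epcam had an intensity of 3980.2 in liver passage 1, against 3760.7 to 4384.4 on the 4 other arrays. The simple keratin gene Krt8 had 3406.1 in liver passage 1, against 3460.4 to 4828.9 on the others. Erbb2, the receptor gene whose rat form is the neu oncogene, was lowest in liver passage 1, with 211.8 against 279.9 in liver passage 3, 342.1 in bone passage 3, 319.5 in bone passage 6 and 312.4 in parental cells. Of the 17 epithelial and oncogene list genes kept, 6 (35.3%) were lowest and 3 (Cdh1, Cldn7 and Esrp1) highest in liver passage 1. All genes had 23.7% lowest and 24.7% highest, and the list had a median difference of -0.10. The actin gene Actb had 6244.1 in liver passage 1 and 6077.6 to 7067.4 on the others.

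Standing outside the range of the other arrays was not peculiar to liver passage 1. By the same rule liver passage 3 had 22 genes outside the range of the remaining 4 arrays (0.174%), bone passage 3 had 54 (0.428%), bone passage 6 had 61 (0.484%) and the parental cells had 82 (0.65%). Liver passage 1 divided its genes nearly evenly between the directions, 32 above and 34 below. Bone passage 3 had 50 above and 4 below, and bone passage 6 had 11 above and 50 below. At a margin of 1.5 or more, 11 genes remained above and 2 below in liver passage 1, and at a margin of 2 or more 4 remained above and 0 below. Just inside the rule stood Snhg16 (margin 1.01) and Znrd2 (margin -1.01), and just outside it Rin1 (0.99) and Haghl (-0.98).

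**Figure D1:**
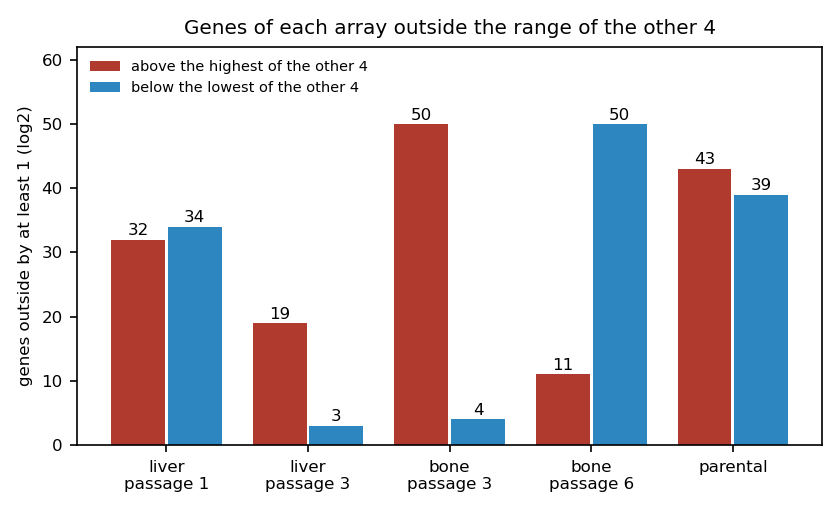
Number of genes of each array (x axis) that lay outside the range of the remaining 4 arrays by at least 1 on log2(intensity + 16) (y axis, genes), above it in red and below it in blue. Liver passage 1 had 32 above and 34 below, and the parental array had 43 and 39, the most in all.

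The genes above the range were of different kinds from those below it. Of the 32 above, 10 were noncoding, namely 9 long noncoding RNA genes and 1 transcribed pseudogene, whereas 0 of the 34 below were. Intensities in liver passage 1 ran between 40.5 and 3523.5 for the genes above. A dim group of 13 genes stayed under 150 on every array, and 11 of these passed the filter only through liver passage 1, so that they had to differ. Of the 34 genes below, 6 stayed under 150. The nearest array was parental for 11 of the genes above, bone passage 3 for 10, liver passage 3 for 9 and bone passage 6 for 2. For the genes below it was bone passage 3 for 13, parental for 11, liver passage 3 for 7 and bone passage 6 for 3. The later passage of the same sub-line was thus the closest sample for 16 of the 66 genes, which were chosen for standing apart. Over all 12609 genes kept, liver passage 3 was the array most like liver passage 1, with a Pearson correlation across genes of 0.973, against 0.963 for parental cells, 0.956 for bone passage 3 and 0.953 for bone passage 6. Genes are not independent replicates, and these values are a description.

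**Figure D2:**
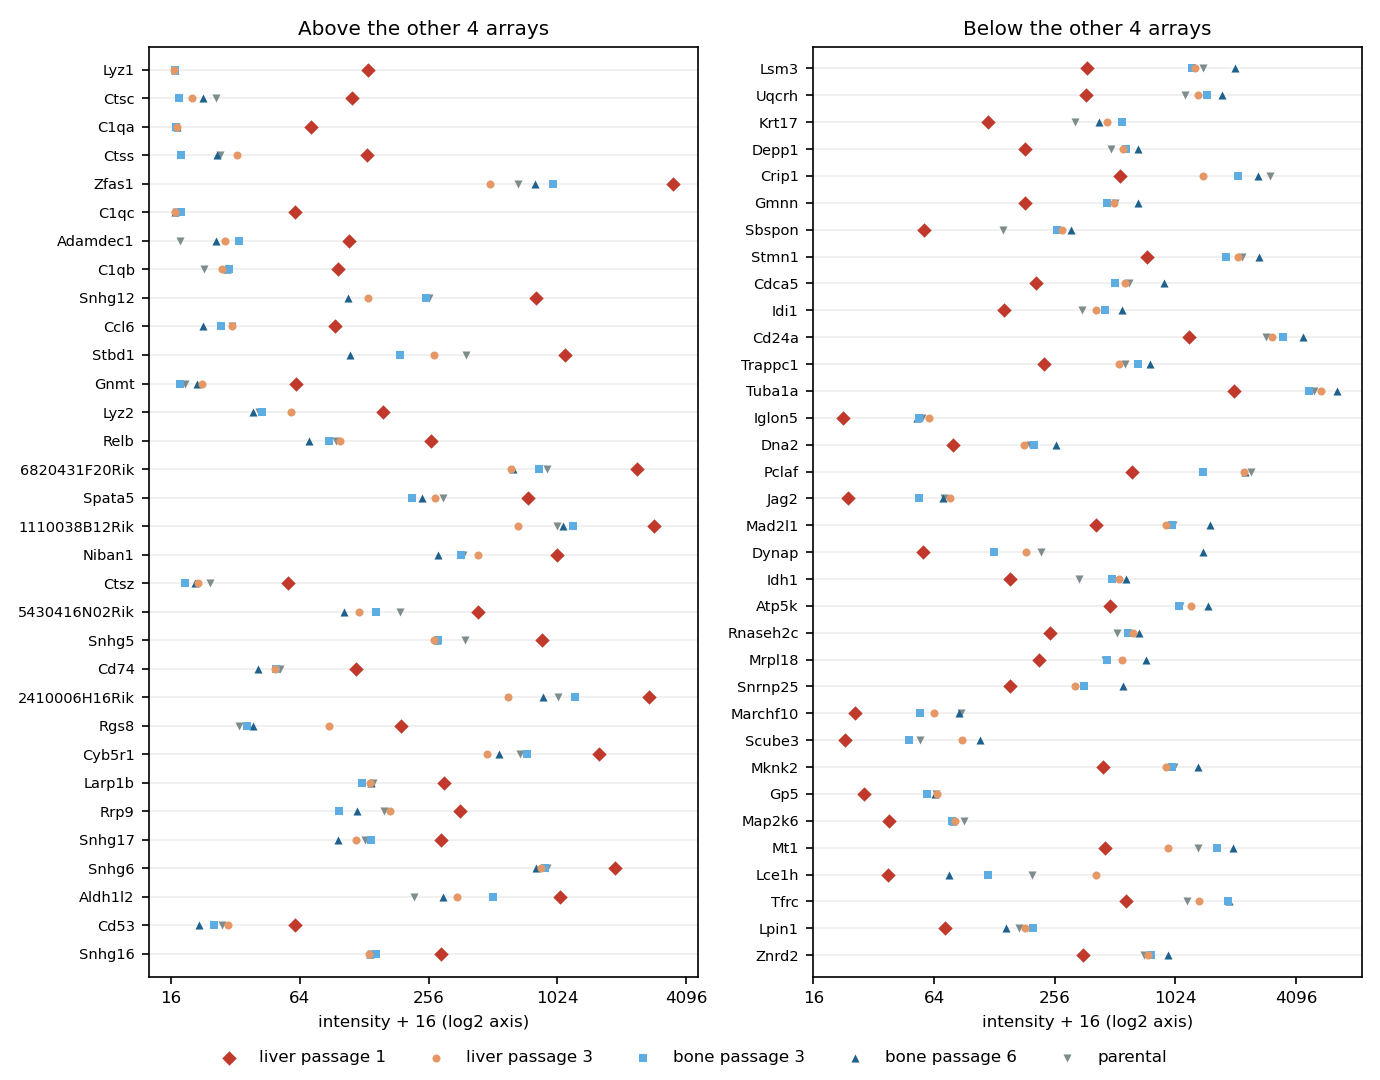
Intensity + 16 (x axis, log2 scale) of the 32 genes above (left) and the 34 genes below (right) the range, 1 row per gene in the order of the margin, with 1 point per array. Liver passage 1 (red diamonds) is at the far right or left in each row by construction, by at least 1 on the log2 scale. Lyz1, Ctsc, C1qa and Ctss lead the genes above at intensities under 150, with the far brighter Zfas1 after them.

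The first group above the range consisted of macrophage genes, all dim. Macrophages clear debris and pathogens, make the 3 chains of complement C1q, and hold lysozyme and lysosomal cathepsins. C1qa, which encodes the A chain of C1q, had an intensity of 56.1 in liver passage 1, against 1.1 in liver passage 3, 1 in bone passage 3, 1.2 in bone passage 6 and 0.9 in parental cells. C1qc, the C chain, had 44.9 in liver passage 1 and between 0.8 and 1.8 on the 4 other arrays. C1qb, the B chain, had 80.4 in liver passage 1, against 11.8, 14, 13.2 and 7 in liver passage 3, bone passage 3, bone passage 6 and parental cells. All 3 probe sets of C1qb lay above the range by at least 1. For C1qa and C1qc the other 4 arrays were at the bottom of the scale, so no fold change is given and the margins of 2.07 and 1.77 depend on the constant 16.

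Lyz1, Lyz2 and the cathepsin genes Ctss, Ctsc and Ctsz had the same shape. Lyz1 had an intensity of 116.9 in liver passage 1, against 0.6 to 0.8 on the 4 other arrays, the largest margin of all (2.98). Of its 3 probe sets 2 were highest in liver passage 1, and averaging all 3 gave a margin of 1.77. Lyz2, the lysozyme of macrophages, had 140.4 in liver passage 1, 42.2 in liver passage 3, 26.5 in bone passage 3, 22.7 in bone passage 6 and 25.5 in parental cells. Lyz1 and Lyz2 are near-identical copies, so their probe sets may share signal, and the split between them is uncertain. Ctss, the cathepsin that trims the invariant chain of MHC class II, had 116.3 in liver passage 1, against 16.8, 1.9, 10.2 and 11.1 in liver passage 3, bone passage 3, bone passage 6 and parental cells. Ctsc, which activates the serine proteases of leukocyte granules, had 96.1 in liver passage 1, against 4.1, 1.5, 6.7 and 10 on those arrays. Ctsz, a carboxypeptidase of lysosomes, had 40.5 in liver passage 1, and 2.7 to 8.5 on the 4 others. In each of these genes the value of liver passage 3 lay nearer to the bone passages than to liver passage 1. Lysosomal genes as a list did not share this shape. Of 23 kept, 3 were above by 1, but only 4 (17.4%) were highest and 4 lowest in liver passage 1, with a median of 0.02. All genes had 24.7% highest and 23.7% lowest. Against liver passage 3, 17 of the 23 were lower in liver passage 1, and 3 of the 23 passed the filter through liver passage 1 alone.

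The dim group also held further leukocyte genes. Adamdec1, a metalloprotease gene of macrophages and dendritic cells, had an intensity of 92.6 in liver passage 1, against 12.8, 17.5, 10 and 1.7 in liver passage 3, bone passage 3, bone passage 6 and parental cells. The chemokine gene Ccl6 had 78 in liver passage 1 and 6.6 to 14.9 on the 4 others. Cd74, the invariant chain of MHC class II, had 101.5 in liver passage 1 and 24.7 to 36 on the 4 others. Cd53, a tetraspanin of leukocytes, had 44.8 in liver passage 1 and 5.8 to 13.7 on the others. The MHC class II genes that Cd74 serves were less distinct. H2-Aa had 36.4 in liver passage 1, against 28.7 in liver passage 3 and 11.2 to 15.1 on the remaining arrays, and H2-Ab1 had 28.7 in liver passage 1, 22.2 in liver passage 3 and 26.4 in parental cells.

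The whole macrophage list showed how far the pattern went. Of its 58 genes 53 were on the array and 37 were kept, and 23 of the 37 (62.2%) had their highest value in liver passage 1, where 24.7% of all genes did. Of the 37, 2 (Cd14 and Lgmn) had their lowest value there, against 23.7% of all genes. The median difference between liver passage 1 and the median of the 4 other arrays was 0.62 over the list and 0.01 over all genes. Because 15 of the 37 passed the filter through liver passage 1 alone, the count without a filter is the fairer one: 29 of 53 were highest in liver passage 1 and 3 were lowest, beside 23% and 21.9% of all 18193 genes, with a median of 0.39. With the filter set on the mean of the 5 arrays, 18 list genes were left, 7 of them highest in liver passage 1, with a median of 0.20. The summed intensity of all 53 genes on the array, kept or not, was 2756.9 in liver passage 1, against 1812.4 to 2478.4 on the 4 others.

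Other well known macrophage and leukocyte genes fell short of the rule. Csf1r, the receptor of the macrophage growth factor CSF1, had 168.7 in liver passage 1, 220 in liver passage 3, 89.3 in bone passage 3, 107.3 in bone passage 6 and 67.6 in parental cells. Cd68, a lysosomal glycoprotein of macrophages, had 173.1 in liver passage 1 and 172 in liver passage 3, with 52.1 to 103.2 on the remaining arrays. Both liver passages thus had the highest values of these genes. Adgre1, which encodes the F4/80 antigen, had 49.9 in liver passage 1 and 27.6 to 42.5 on the 4 others. The leukocyte phosphatase gene Ptprc (CD45) had 25.7 in liver passage 1 and 6.1 to 12.9 on the others, and the adaptor gene Tyrobp had 34.5 in liver passage 1 and 3.7 to 11.2 on the others.

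Of 10 genes that mark Kupffer cells, the resident macrophages of the liver, 5 were kept. The 3 C1q genes were above the range, but they passed the filter through liver passage 1 alone and so had to be highest there. Folr2 was within the range (24 in liver passage 1 and 18.5 to 33.3 on the 4 others). The iron exporter gene Slc40a1 was lowest, with 92.6 in liver passage 1 and 132.3 to 352.9 on the others. Without the filter 3 of the 10 were highest and 2 lowest, with a median of -0.05, beside 23% and 21.9% of all genes. The 5 that stayed below the filter are those more specific to Kupffer cells or to resident and scavenging macrophages. Clec4f had 12.7 in liver passage 1 and 1 to 16.9 on the 4 others, and Vsig4 had 9.9 in liver passage 1 and 4.6 to 20.3 on the others. Timd4, Cd5l and Marco had 2.1, 7.9 and 1.5 in liver passage 1, and none of the 3 was highest there. Cd5l was lowest there, with 12.3 to 23.1 on the 4 others. The C1q, lysozyme and cathepsin genes named above were thus high in liver passage 1 while these 5 genes stayed below the filter on all arrays. At these intensities a low value does not show that a transcript was missing.

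Markers of other cell types of the liver fell partly below the filter. Of 21 hepatocyte genes on the array 8 were kept, with 1 highest (Tat) and 2 lowest (Apoa2 and Cyp2e1) in liver passage 1 and none outside by 1. Albumin (Alb) had 4.8 in liver passage 1 and 2.4 to 15.8 on the 4 others, and Apoa1 had 15.6 in liver passage 1 and 7.1 to 16.4 on the others. Ttr, which encodes the transport protein transthyretin, was below the filter but highest in liver passage 1, at 17 against 4.2, 1.1, 0.7 and 0.7 in liver passage 3, bone passage 3, bone passage 6 and parental cells. Without the filter 5 of the 21 were highest in liver passage 1 (Ttr, Tat, Ahsg, Apoc3 and Fgb) and 5 were lowest (Apoa2, Cyp2e1, Cps1, Hpx and Fgg). Gnmt, an enzyme of methionine metabolism known for its abundance in liver, and not in that list, lay above the range, with 45.7 in liver passage 1 against 6.5, 1.7, 5.2 and 2.7 in liver passage 3, bone passage 3, bone passage 6 and parental cells. No gene of the endothelial, fibroblast and stellate, lymphocyte, erythroid and platelet, or monocyte and neutrophil lists lay outside by 1. These lists kept 8, 11, 2, 4 and 8 genes in that order, and 0.523% of all genes lay outside by 1. An empty count in lists this short tells little. Pecam1, an endothelial gene, had 5.2 in liver passage 1 and 1.9 to 6.1 on the 4 others, and Cd3e of T cells had 13.4 in liver passage 1 and 10.1 to 12.7 on the others. The collagen gene Col1a1 had 28.1 in liver passage 1, against 34.3 in parental cells and 15.4 to 16.1 on the remaining arrays. Without the filter 6 of 20 fibroblast and stellate genes were highest in liver passage 1 and 4 lowest, with a median of 0.15. For endothelial genes these counts were 0 and 4 of 18. Among all genes 23% were highest and 21.9% lowest without the filter. The part of other cells in the differences described below was not tested.

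The second group above the range was made of bright noncoding genes that host small nucleolar RNAs. Small nucleolar RNAs guide the modification of ribosomal RNA, and most are cut out of the introns of host genes. Many noncoding hosts have spliced RNAs that are translated briefly and then degraded by nonsense-mediated decay, and several belong to the genes whose RNA begins with a run of pyrimidines (C or T). By the RefSeq annotation 8 of the 32 genes above the range enclose small nucleolar RNA genes, all of them long noncoding.

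The regions around the annotated starts of these genes are shown because such a run is the feature the hosts are known for. Each line holds 60 bases of RefSeq sequence (GRCm38.p6), 5′ to 3′ on the strand of the gene, 30 before the start and 30 from it on. The longest run of C and T within 20 bases either side of the start is in capitals. Gas5 and Snhg1, shown for comparison, are hosts that lay above all 4 other arrays by less than 1. For Gas5 the start with the longer run is printed, and the first listed start has a longest run of 3. For Snhg17 the first start is printed, whose run begins 20 bases before it, and the second has a run of 6. The second start of 1110038B12Rik holds the same run as the first.
Zfas1, chr2:167062904-167062963, plus strand: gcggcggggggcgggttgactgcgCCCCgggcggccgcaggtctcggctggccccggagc
Snhg12, chr4:132308648-132308707, plus strand: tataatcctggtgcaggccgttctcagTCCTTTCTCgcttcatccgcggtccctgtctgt
Snhg5, chr9:88522868-88522927, minus strand: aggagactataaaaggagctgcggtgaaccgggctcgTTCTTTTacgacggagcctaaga
2410006H16Rik, chr11:62602847-62602906, plus strand: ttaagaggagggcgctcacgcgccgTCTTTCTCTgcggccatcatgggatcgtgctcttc
1110038B12Rik, first start, chr17:34952442-34952501, minus strand: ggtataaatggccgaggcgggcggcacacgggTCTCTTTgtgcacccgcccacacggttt
Snhg16, chr11:116671630-116671689, plus strand: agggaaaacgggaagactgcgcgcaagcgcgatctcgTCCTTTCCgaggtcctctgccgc
Snhg17, first start, chr2:158361493-158361552, minus strand: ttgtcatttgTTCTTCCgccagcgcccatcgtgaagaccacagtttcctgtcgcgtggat
Snhg1, chr19:8723457-8723516, plus strand: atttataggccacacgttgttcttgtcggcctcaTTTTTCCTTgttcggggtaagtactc
Gas5, second start, chr1:161035136-161035195, plus strand: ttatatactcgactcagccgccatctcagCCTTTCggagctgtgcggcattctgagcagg

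Runs of 7 or more were common near the starts of these hosts. Of the 7 hosts above the range that the promoter table held (Snhg6 was not matched), 6 (85.7%) had such a run in this window at one of their listed starts, Zfas1 with its run of 4 being the exception. The share was 65% of 20 noncoding hosts with a sequence, 30.8% of 211 coding genes that enclose small nucleolar RNAs, and 27.5% of all 27018 genes in the table. A run in this window need not begin the RNA, and those of Snhg5 and Snhg16 begin 7 bases after the start. Both the window and the length of 7 were chosen after the values were seen. The match is to letters only, and whether the RNAs of these cells start at the annotated base was not tested.

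Zfas1 was the brightest gene above the range. Its intensity was 3523.5 in liver passage 1, against 482.3 in liver passage 3, 960.8 in bone passage 3, 785.4 in bone passage 6 and 654.5 in parental cells. The lowest value was that of the later passage of the same sub-line. Snhg12 had 798 in liver passage 1, 116.8 in liver passage 3, 232.5 in bone passage 3, 91.6 in bone passage 6 and 240.8 in parental cells. Snhg5 had 847.7 in liver passage 1, and its 4 other values lay between 256.5 and 362.6. For Snhg12 and Snhg5 the parental cells were the nearest array.

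The margins of the remaining hosts above the range lay between 1.01 and 1.27. Snhg6 had 1887.1 in liver passage 1, against 795.4 to 898.7 on the 4 others. Snhg17 had 275.5 in liver passage 1 and 80.6 to 121.4 on the others, and Snhg16 had 275.1 in liver passage 1 and 119.5 to 128.7 on the others. Hosts known only by RIKEN names, named here after their values were seen, were 1110038B12Rik, with 2883.5 in liver passage 1 and 654.2 to 1187.8 on the others, and 2410006H16Rik, with 2729.0 in liver passage 1 and 585 to 1219.4 on the others. Liver passage 3 was the lowest of the 5 arrays in both.

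Hosts short of the rule included some of the best known. Gas5, whose RNA was first described in growth-arrested cells, had 4474.7 in liver passage 1, 1724.3 in liver passage 3, 3109.6 in bone passage 3, 2815.5 in bone passage 6 and 2831.0 in parental cells. Snhg1 had 3296.5 in liver passage 1, 1039.9 in liver passage 3, 1650.0 in bone passage 3, 1665.3 in bone passage 6 and 1869.7 in parental cells. Both were highest in liver passage 1, by 0.52 and 0.81 on the log2 scale.

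Among all 23 noncoding hosts kept, 14 were highest in liver passage 1, 5 were lowest and 8 were above by at least 1, with a median difference of 0.42. All genes had 24.7% highest, 23.7% lowest and 0.254% above by 1. The pattern lay in the brighter hosts. Of the 13 with a mean of at least 100 on the 4 other arrays, 11 were highest and 2 lowest (Snhg3 and Snhg4), with a median of 1.12. Of the 10 dimmer ones, 3 were highest (AI506816, 9430037G07Rik and Dancr) and 3 lowest (Snhg7, Snhg18 and 1700120C14Rik), with a median of -0.05. Coding genes that enclose small nucleolar RNAs did not share it: 70 of 249 were highest and 45 lowest, 0 were above by 1, and the median was 0.02. Of 415 other long noncoding genes 73 were highest and 89 lowest, with 1 above by 1 (5430416N02Rik). These groups were formed from the RefSeq annotation after the values were seen.

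**Figure D3:**
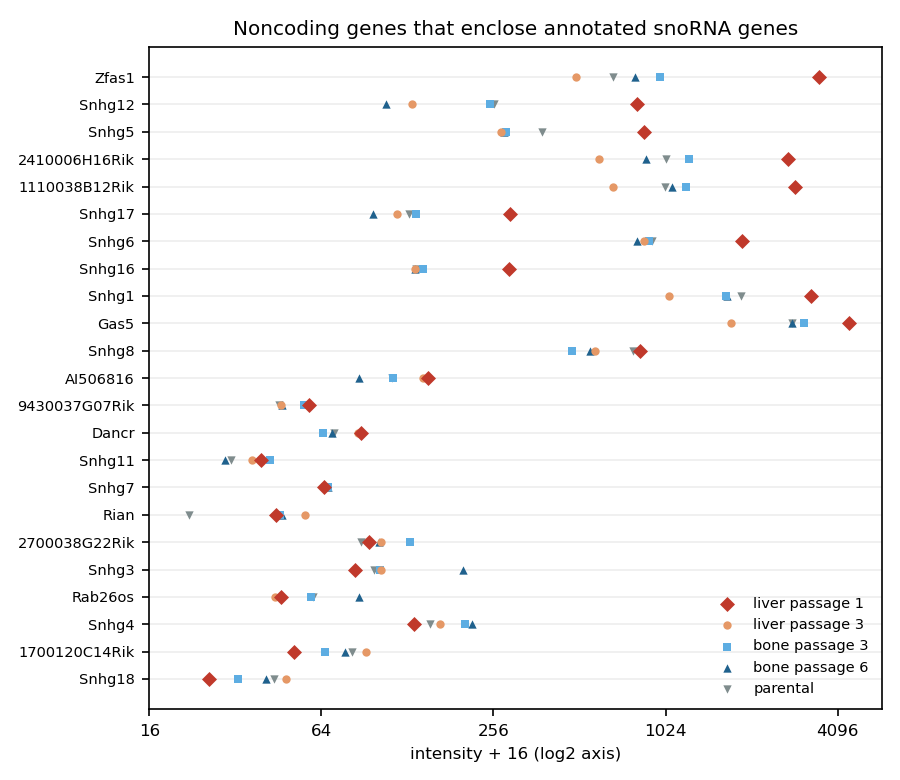
Intensity + 16 (x axis, log2 scale) of the 23 noncoding genes that enclose annotated small nucleolar RNA (snoRNA) genes, 1 row per gene in the order of the difference of liver passage 1 from the median of the 4 other arrays, with 1 point per array. Liver passage 1 (red diamonds) lies to the right of all other arrays in the 14 uppermost rows, and in 5 rows further down it lies to their left.

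Genes that make ribosomes and those that act in nonsense-mediated decay were examined beside the hosts. Rrp9, a protein of the U3 small nucleolar particle, was above the range, with 344.5 in liver passage 1 against 153.5 in liver passage 3, 81.5 in bone passage 3, 103.1 in bone passage 6 and 142.7 in parental cells. Of the 30 ribosome biogenesis genes 16 (53.3%) were highest in liver passage 1 and 1 (Nop10) was lowest, beside 24.7% and 23.7% of all genes. The list median was 0.29. The difference was 0.34 against liver passage 3, 0.29 against bone passage 3, 0.40 against parental cells and 0.03 against bone passage 6, so bone passage 6 was at a like level, and without it 25 of the 30 were highest in liver passage 1. Chosen after their values were seen, the box C/D particle proteins Nop56 and Nop58 had 1790.5 and 1459.0 in liver passage 1, against 1079.1 to 1340.6 and 832.7 to 1048.7 on the 4 others. Of 10 nonsense-mediated decay genes 5 (Upf2, Smg1, Smg5, Smg9 and Pnrc2) were highest and 0 lowest in liver passage 1, with a median of 0.22. Ribosomal protein genes did not go the same way: of 26, 1 (Rpl12) was highest and 10 were lowest, with a median of -0.14, which was -0.007 after quantile normalization, when 6 were highest and 8 lowest. Without liver passage 3, 20 of the 26 were lowest in liver passage 1.

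The third pattern was a shift of many genes of the integrated stress response, only 1 of which was above the range by 1. In that response, kinases that sense amino acid shortage, unfolded protein or heme loss slow translation while the transcription factor ATF4 is made, and ATF4 and its partners raise genes of amino acid import and synthesis, tRNA charging and cell death. Of the 38 genes kept, 24 (63.2%) were highest in liver passage 1 and 0 were lowest, with a median difference of 0.55. All genes had 24.7% highest and 23.7% lowest, with a median of 0.01. All 38 were higher in liver passage 1 than in liver passage 3, by a median of 0.81. Against bone passage 6, 36 were higher (median 0.60), against bone passage 3, 33 (0.53), and against parental cells 28 (0.31). Over all genes the medians of these 4 comparisons lay between -0.02 and 0.05. All 4 comparisons share the array of liver passage 1. The parental cells were thus the nearest on this list.

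The gene above the range was Aldh1l2, a mitochondrial enzyme of one-carbon metabolism. It had 1034.8 in liver passage 1, 333 in liver passage 3, 495.5 in bone passage 3, 282.3 in bone passage 6 and 202.7 in parental cells. Trib3, a pseudokinase that restrains ATF4, had 1923.4 in liver passage 1, 403.1 in liver passage 3, 877.1 in bone passage 3, 384.9 in bone passage 6 and 1109.5 in parental cells. Chac1, an enzyme that degrades glutathione, had 1539.9 in liver passage 1, 523.6 in liver passage 3, 618.7 in bone passage 3, 385.6 in bone passage 6 and 997.4 in parental cells. In both Trib3 and Chac1 the parental cells came second. Ddit3, which encodes CHOP, had 265.3 in liver passage 1 and 83 to 148.9 on the 4 others.

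Ppp1r15a, Cebpg, Slc7a1 and Psph were chosen here from the list after their values were seen. Ppp1r15a (GADD34), which restores translation, had 364.9 in liver passage 1 and 133.9 to 212.8 on the 4 others. Cebpg, a partner of ATF4, had 726.3 in liver passage 1 and 337.2 to 448.6 on the others. The cationic amino acid transporter gene Slc7a1 had 1703.5 in liver passage 1 and 791.2 to 1054.4 on the others. Psph, the last enzyme of serine synthesis, had 1459.9 in liver passage 1 and 599.1 to 884.7 on the others. The message of Atf4 itself, whose protein is governed mainly at translation, was not highest, at 2380.5 in liver passage 1, 1516.0 to 2107.6 in liver passage 3 and the bone passages, and 2672.3 in parental cells. Asns, the asparagine synthetase, was only a little above the rest, at 2850.9 in liver passage 1 and 1307.1 to 2519.9 on the others.

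Promoters of this list were searched for TGATGNAA, the core of the C/EBP-ATF response element, on both strands of the 300-base window that runs from 250 bases before the RefSeq start to 50 after it. Of 30 list genes with a promoter sequence 10 (33.3%) held it, against 4.51% of all 27018 genes in the table and 2.81% of those kept here. The shares were 30% of the 20 that were highest in liver passage 1 and 40% of the 10 that were not, so the motif did not mark out the highest genes. None of the 25 genes above the range with a sequence held it. Windows of 40 bases around it, in capitals, are printed for 4 genes named above or of the same response (GRCm38.p6, on the strand of the gene).
Trib3, chr2:152344023-152344062, minus strand: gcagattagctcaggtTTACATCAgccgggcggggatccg
Chac1, chr2:119351033-119351072, plus strand: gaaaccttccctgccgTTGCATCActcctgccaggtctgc
Atf3, chr1:191183420-191183459, minus strand: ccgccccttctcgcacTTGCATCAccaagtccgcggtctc
Asns, chr6:7693209-7693248, minus strand: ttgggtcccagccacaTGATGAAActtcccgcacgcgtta
In Trib3, Chac1 and Atf3 the match is on the opposite strand, so it reads in reverse complement here, and in Asns it is on the strand of the gene. Which proteins bind these windows was not measured, and the search was added after the values were seen.

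Other stress lists went another way. Beside them, all genes had 24.7% highest and 23.7% lowest in liver passage 1. Of 24 genes of the unfolded protein response of the endoplasmic reticulum 3 (Herpud1, Wfs1 and Xbp1) were highest and 8 lowest in liver passage 1, with a median of -0.16. Without the parental array 13 were lowest, and without bone passage 3 6 were highest. The chaperone gene Hspa5 of this response (BiP) had 5307.6 in liver passage 1, against 4281.0, 5309.1, 5832.9 and 4392.2 in liver passage 3, bone passage 3, bone passage 6 and parental cells. Of 17 heat shock genes 1 (Chordc1) was highest and 9 (52.9%) were lowest, with a median of -0.27. Hspa1a, an inducible heat shock gene, was below the filter, with 7.1 in liver passage 1 and 1.4 to 9.1 on the others. Of 22 p53 target genes 8 were highest and 4 (Ccng1, Gadd45b, Perp and Sesn1) lowest, with a median of 0.05. Cdkn1a, the p21 inhibitor of the cell cycle, had 695.9 in liver passage 1, within the 518.1 to 1212.0 of the others, and Mdm2 had 753 in liver passage 1 and 738.1 to 891.6 on the others. Of 26 hypoxia and glycolysis genes 1 (Vegfa) was highest and 15 (57.7%) were lowest, with a median of -0.22. Among these stress lists the integrated stress response had the highest share of genes at their highest value in liver passage 1.

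Other genes above the range fell outside these groups. Stbd1, which tethers glycogen to membranes, had 1090.7 in liver passage 1, 254 in liver passage 3, 171.6 in bone passage 3, 94.3 in bone passage 6 and 367.7 in parental cells. Relb, the NF-kB subunit of the noncanonical pathway, had 245.8 in liver passage 1 and 54.8 to 83 on the 4 others. Of the list of inflammatory NF-kB genes, 6 of 22 (27.3%) were highest and 3 (Ccl9, Lcn2 and Tnfaip3) lowest in liver passage 1, beside 24.7% and 23.7% of all genes. Without the parental array 13 of the 22 were highest. Niban1, a gene switched on by cell stress, had 1001.5 in liver passage 1 and 268.3 to 419.5 on the others. Spata5, an ATPase whose yeast counterpart matures ribosomes, had 733.8 in liver passage 1 and 197.6 to 283.3 on the others. Rgs8, a regulator of G protein signalling, had 174.9 in liver passage 1, 71.4 in liver passage 3 and 17.5 to 22.7 on the remaining arrays, so that both liver passages were the highest. Liver passage 3 came second in Relb and Niban1 as well, but close to the next array. Of the rest, Cyb5r1, Larp1b and the RIKEN genes 6820431F20Rik and 5430416N02Rik had margins of 1.11, 1.09, 1.39 and 1.20.

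Interferon genes did not set liver passage 1 apart, although they varied widely between the arrays. Of 27 kept, 3 (Cxcl10, Irf1 and Mx1) were highest and 1 (Ifit2) lowest in liver passage 1, and none was outside by 1. Without liver passage 3 there were 8 highest, and without bone passage 3 there were 5. The median difference was 1.36 against bone passage 6 and 0.65 against parental cells, but -0.47 against liver passage 3 and -0.16 against bone passage 3. Liver passage 1 lay in the middle of the samples. Of 8 complement genes, 5 (C1s1, C2, C5ar1, Cfb and Cfp) were highest in liver passage 1 and 0 lowest, with a median of 0.35. All genes had 24.7% highest and 23.7% lowest. Because 2 of the 8 passed the filter through liver passage 1 alone, they had to be highest there. With the filter on the mean 4 genes were left, 3 of them highest.

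Genes below the range were led by Lsm3, a subunit of the Lsm ring that binds U6 RNA in splicing and acts in RNA decay. It had an intensity of 356.6 in liver passage 1, 1262.7 in liver passage 3, 1229.7 in bone passage 3, 2014.2 in bone passage 6 and 1398.8 in parental cells, a margin of -1.74. Uqcrh, the hinge protein of respiratory complex III, had 350.6 in liver passage 1, against 1313.7, 1460.0, 1738.0 and 1122.0 in liver passage 3, bone passage 3, bone passage 6 and parental cells. Both of its probe sets were below by at least 1. The respiratory chain list, which does not include Uqcrh, had 0 genes below by 1. Of its 30 genes 12 (40%) were lowest and 0 highest in liver passage 1, with a median of -0.18, beside 23.7% lowest and 24.7% highest of all genes. After quantile normalization 4 were highest and 11 lowest, and without liver passage 3 19 were lowest.

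Several genes below the range act in the cell cycle or on microtubules. They were picked out after their values were seen, and of the fixed lists 0 of 41 DNA replication genes and 1 of 50 mitosis genes were below by 1. Gmnn encodes geminin, which keeps DNA from being copied again within a cycle. It had 165.9 in liver passage 1, 487.4 in liver passage 3, 452 in bone passage 3, 652.8 in bone passage 6 and 494 in parental cells. Cdca5, which encodes sororin of sister chromatid cohesion, had 191.2 in liver passage 1, against 560.3, 495.5, 884.3 and 585.1 on those arrays. Mad2l1, of the spindle checkpoint, had 393.2 in liver passage 1 and 907.4 to 1500.6 on the 4 others. Pclaf, a partner of the replication clamp PCNA, had 604.8 in liver passage 1 and 1394.3 to 2433.9 on the others, and Dna2, a replication nuclease and helicase, had 63.1 in liver passage 1 and 163.7 to 244.9 on the others. Stmn1, which destabilises microtubules, had 723.3 in liver passage 1 and 1818.3 to 2657.1 on the others, and the alpha-tubulin gene Tuba1a had 1989.1 in liver passage 1 and 4733.4 to 6566.2 on the others. Bone passage 3 was the nearest array for Gmnn, Cdca5, Pclaf, Stmn1 and Tuba1a, and liver passage 3 for Mad2l1 and Dna2.

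The DNA replication list showed the same direction in nearly all its genes. Of 41 genes 31 (75.6%) were lowest in liver passage 1, beside 23.7% of all genes, and 0 were highest, with a median of -0.56. Mcm2, a subunit of the replicative helicase, had 660.1 in liver passage 1, 967.1 in liver passage 3, 1015.5 in bone passage 3, 1709.3 in bone passage 6 and 1316.0 in parental cells. Chosen after their values were seen, Cdc6, which loads that helicase, had 122.7 in liver passage 1 and 254.4 to 454.3 on the 4 others, and DNA ligase 1 (Lig1) had 189.7 in liver passage 1 and 373.7 to 570.3 on the others. No gene of the list lay below the nearest array by 1 on the log2 scale. Differences from the farthest array were larger, as the ranges of Cdc6 and Lig1 show. Liver passage 1 was lower than liver passage 3 in 40 of 41 genes, than bone passage 3 in 33, than bone passage 6 in 37 and than parental cells in 39.

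Mitosis genes were also low in liver passage 1, but so they were in bone passage 3. Of 50 genes 29 (58%) were lowest in liver passage 1, beside 23.7% of all genes, and 2 (Kif23 and Smc4) were highest, beside 24.7%. The list median was -0.51. The median difference was -0.47 against liver passage 3, -0.63 against bone passage 6 and -0.66 against parental cells, but only -0.11 against bone passage 3, where 29 of 50 were lower in liver passage 1. Without bone passage 3, 46 of the 50 were lowest in liver passage 1. Mki67, the gene of the Ki-67 antigen, had 503.5 in liver passage 1, 632.3 in liver passage 3, 495.2 in bone passage 3, 703.1 in bone passage 6 and 745.9 in parental cells. Top2a, the topoisomerase of dividing cells, had 1402.7 in liver passage 1, 2164.1 in liver passage 3, 1400.8 in bone passage 3, 2246.5 in bone passage 6 and 2244.0 in parental cells. For both genes liver passage 1 and bone passage 3 were at like levels.

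Growth genes upstream of the cycle differed from one another. Ccnd1, which encodes cyclin D1, had 3584.0 in liver passage 1, within the 2838.5 to 3696.1 of the others. Ccnd2, which encodes cyclin D2, had 83.7 in liver passage 1, against 276.1 in liver passage 3, 785.8 in bone passage 3, 688.2 in bone passage 6 and 157.9 in parental cells. Myc, a regulator of growth and ribosome production, had 1212.0 in liver passage 1, 539.1 in liver passage 3 and 745.5 to 833 on the remaining arrays, the highest value by 0.53 on the log2 scale. Of 19 genes of G1 and growth arrest 3 (Cdk6, Gas1 and Gas2) were highest and 6 lowest in liver passage 1, with a median of -0.15. All genes had 24.7% highest and 23.7% lowest.

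**Figure D4:**
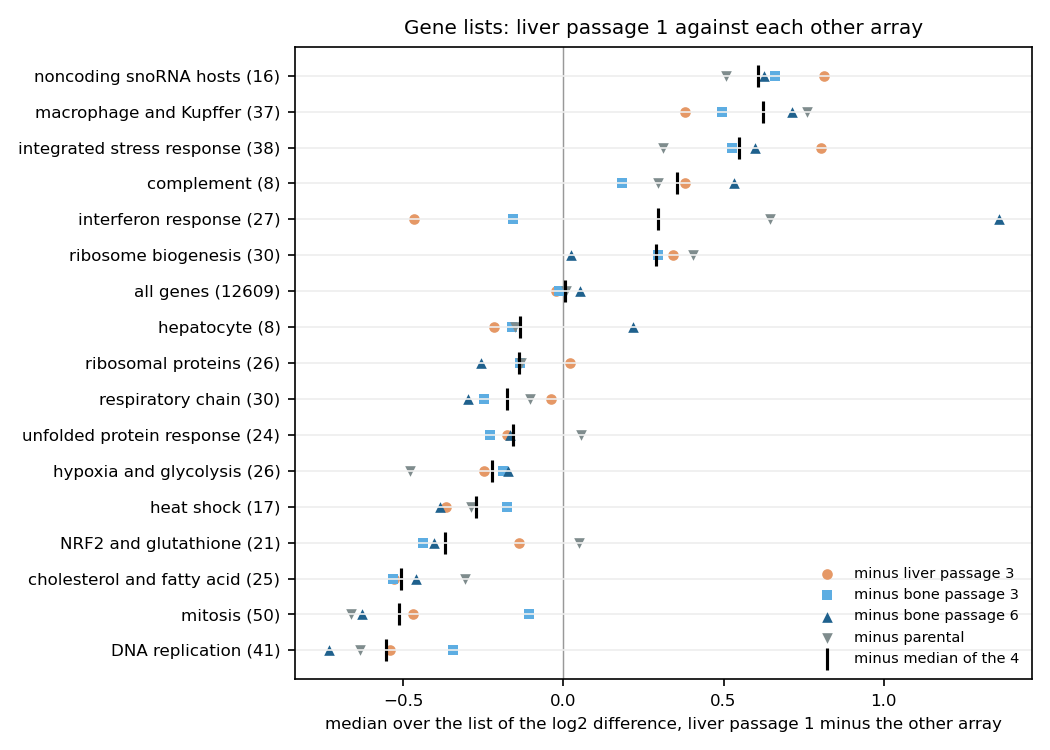
Median over each gene list (rows, number of genes kept in brackets) of the log2 difference of intensity + 16 between liver passage 1 and each other array (coloured points, x axis), and between liver passage 1 and the median of the 4 (black bars). Noncoding hosts, macrophage genes and the integrated stress response lie to the right, DNA replication lies left of zero against every array, mitosis genes lie near zero against bone passage 3 (-0.11), and the interferon list spreads between -0.47 and 1.36.

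Genes of cholesterol and fatty acid synthesis were low as well. Idi1, an isomerase of the cholesterol pathway, was below the range, with 126.8 in liver passage 1, 394.9 in liver passage 3, 439.6 in bone passage 3, 541.1 in bone passage 6 and 332.6 in parental cells. Both of its probe sets were below by at least 1. Of the 25 genes of the list 16 (64%) were lowest and 0 highest in liver passage 1, beside 23.7% and 24.7% of all genes. The list median was -0.51. Named after their values were seen, the squalene synthase gene Fdft1 had 287.8 in liver passage 1 and 558.2 to 797.8 on the 4 others, and the desaturase gene Fads2 had 341 in liver passage 1 and 574 to 769.7 on the others. Idh1, the cytosolic isocitrate dehydrogenase that supplies NADPH, was below the range with 136.9 in liver passage 1 and 323.7 to 566.1 on the others.

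The remaining genes below the range had varied roles. Crip1, a small LIM protein, had 524.3 in liver passage 1, 1391.3 in liver passage 3, 2095.9 in bone passage 3, 2639.9 in bone passage 6 and 3022.7 in parental cells. The epithelial keratin gene Krt17 had 103.4 in liver passage 1 and 305.5 to 538.7 on the 4 others, and the surface glycoprotein gene Cd24a had 1180.2 in liver passage 1 and 2895.9 to 4427.4 on the others. All 3 probe sets of Cd24a were below by at least 1. Metal handling was represented by Mt1, a metallothionein, with 441 in liver passage 1 and 923 to 1965.3 on the others. The transferrin receptor gene Tfrc, named after its values were seen, had 563.8 in liver passage 1 and 1159.2 to 1869.9 on the others. Depp1, Sbspon, Trappc1 and Dynap had margins of -1.42, -1.31, -1.25 and -1.17. Dynap differed by array in its own right, at 40.5 in liver passage 1, 168.8 in liver passage 3, 110.9 in bone passage 3, 1389.1 in bone passage 6 and 203.5 in parental cells.

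Dim genes below the range were fewer than dim genes above it. The Notch ligand gene Jag2 had 7.9 in liver passage 1 and 38 to 60.7 on the 4 others, and Iglon5, of a family of neuronal adhesion proteins, had 6.4 in liver passage 1 and 36.6 to 44.3 on the others. The second probe set of Jag2 was not lowest in liver passage 1. Near the rule but outside it, S100a8, a calcium-binding protein of neutrophils that epithelial cells also make, had 95.9 in liver passage 1, against 301.9, 319.7, 203.9 and 336.8 in liver passage 3, bone passage 3, bone passage 6 and parental cells. Genes of the NRF2 and glutathione list were lowest in liver passage 1 in 7 of 21 cases and highest in 4 (Abcc1, Osgin1, Slc7a11 and Sqstm1). All genes had 23.7% lowest and 24.7% highest. The list median was -0.37, but it was 0.05 against parental cells.

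Several probe sets gave some check of single genes. Of the 32 genes above the range 11 had several probe sets, and in 5 of these every probe set was highest in liver passage 1. None had a probe set lowest there. Of the 34 genes below 21 had several, in 17 every probe set was lowest in liver passage 1, and in 1, Marchf10, another probe set was highest. Averaging all probe sets of a gene left 27 genes above and 21 below by 1. Snhg5, whose other 2 probe sets were not highest in liver passage 1, then had a margin of 0.19 against 1.19 with its brightest probe set.

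**Figure D5:**
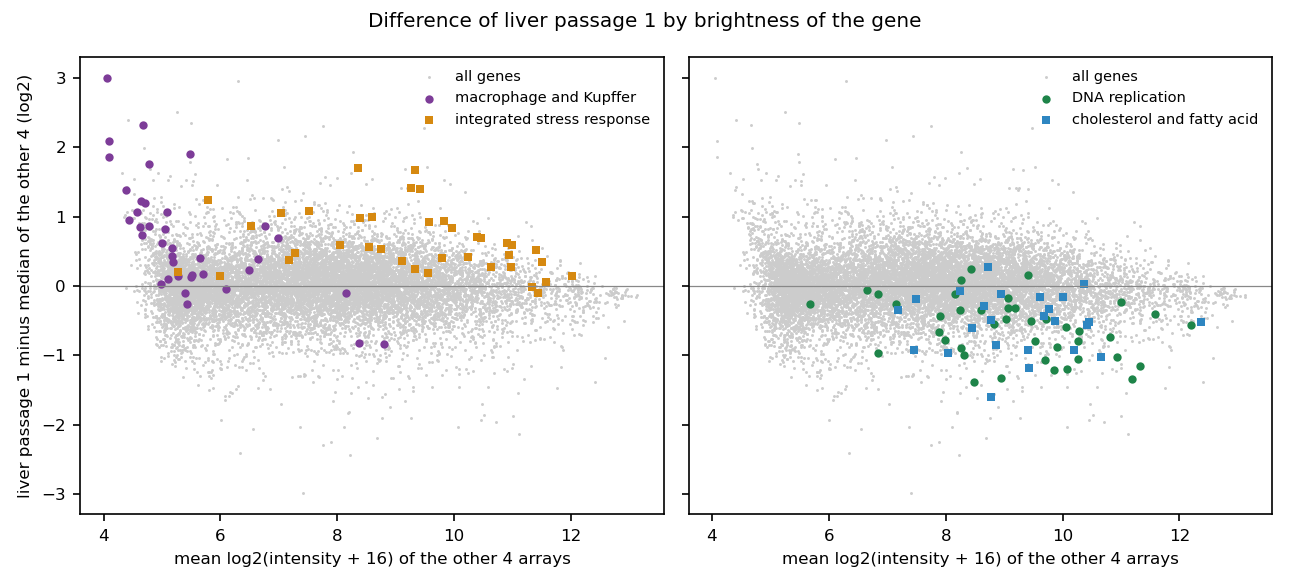
Difference of liver passage 1 from the median of the 4 other arrays (y axis, log2) against the mean log2(intensity + 16) of those arrays (x axis), with all 12609 genes in grey. Macrophage genes with high differences sit at the dim end (left panel, purple), whereas genes of the integrated stress response (orange) and, on the right panel, of DNA replication (green) and of cholesterol and fatty acid synthesis (blue) are spread over the brighter range.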

How the data were processed

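RNA of 5 mouse NT2.5 samples was measured, 1 one-colour Affymetrix array each. The deposited file holds intensities of 45101 probe sets, and their range shows that they are linear and not log values. Per the submitters' processing notes RMA was used (version not given in the sources used here), although RMA gives log2 values. With 2% of values trimmed from either end, every array averaged 150. Per the labels' protocols, 5 ug of RNeasy-purified total RNA went into biotin-labelled cRNA.

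Values were not normalized again and were put on the scale log2(intensity + 16), which understates differences of dim genes. The platform annotation gave 1 gene for 34945 probe sets. Probe sets with several genes (932) or not listed (9211) were left out. A gene was represented by its probe set with the highest mean and kept where the highest of its 5 intensities reached 25.1, the median of all values, which left 12609 of 18193 genes. Names, the enclosing of small nucleolar RNA genes and promoter sequences came from RefSeq tables of GRCm38.p6.

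Each sample has 1 array, so no test was made, and the number of arrays limits the precision. Lists are described by counts and medians beside all genes kept. The members and the 39 gene lists were chosen with earlier results of these data known. The text names the 20 named genes with the largest margin in each direction, list members with a margin of at least 1, and a fixed set of genes whatever their values, of which Hbb-b1, Ccnb1, Rpl3 and Gapdh had no probe set of a single gene. Other genes are given as members of a count of 5 or fewer, or were chosen after their values were seen. The counting was tested on simulated data. Alternatives were another constant (1 or 64), filtering on the mean or not at all, quantile normalization, centring on the median, other treatments of probe sets, margins of 1.5-fold and 3-fold, and leaving out each other array. Python 3.11.15, pandas 2.3.3 and numpy 2.4.6 were used.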

Additional observations from a re-analysis of the deposited data

How the results depend on the processing

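Of 604 margins of named genes under the alternatives, 532 stayed on the same side of the rule, 72 fell short of it and 0 changed sign. Many of the 532 could not have come out otherwise. Leaving out an array or a constant of 1 can only widen a margin, and a margin of 1.5-fold only relaxes the rule. Dropping the filter left these margins as they were. Lyz1, Ctsc, C1qa, C1qc, Gnmt, Ctsz and Cd53 were removed by the filter on the mean, and those margins are not among the 604. With a constant of 1 there were 57 genes above and 121 below, and with 64 there were 16 above and 15 below, among which 3 of the 13 dim genes and 6 of the 8 noncoding hosts remained above. Averaging probe sets gave 27 above and 21 below, and 12 named genes then fell short (Ctsc, Spata5, Snhg5, Snhg16, Cd53, Krt17, Depp1, Iglon5, Dna2, Pclaf, Jag2 and Mt1). Counting every probe set gave 50 above and 51 below. A margin of 1.5-fold gave 165 above and 220 below, and a margin of 3-fold gave 10 and 2. Without 1 of the other arrays, 34 to 75 genes were above and 44 to 67 below, most without liver passage 3 (75 and 67), since a range of fewer arrays is easier to leave. Without the parental array the counts were 52 and 54, and without bone passage 3 they were 39 and 59. Of 221 list medians, 199 moved little, 19 moved and 3 reversed. The MHC class II median of 0.31 was -0.211 with averaged probe sets. The interferon median of 0.295 was -0.072 without the parental array and -0.079 without bone passage 6, with a range over the left-out arrays of -0.079 to 0.632. The cause of the MHC class II reversal was not tested. Macrophage genes were dim, and their list median of 0.62 was 0.29 with a constant of 64 and 0.83 with 1. No paired analysis was possible because each group holds 1 array.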
